A study of Mus musculus with 12 samples.

Results

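Lrrc32 and 7 genes of transforming growth factor beta (TGF-beta) signalling were followed across 12 expression arrays of RAW264.7 cells, an established mouse macrophage line. The 8 genes were Lrrc32, Tgfb1, Ltbp3, Tgfbr1, Tgfbr2, Smad3, Smad7 and Tgfbi. They were taken by name, and all 14 of their probes were read, out of 34797 gene names and 55681 probes on the array. The genes were chosen from signals measured in all 4 groups of these same arrays, so their values are given as a description, without a p-value. All 4 groups, with 3 arrays each, were the same line, grown in medium with 10% serum, treated in medium with 0.5% fatty acid-free bovine serum albumin, and read after 24 h: controls with neither agent, cells given 200 nM recombinant FABP4, cells given 0.2 mM palmitic acid, and cells given both. FABP4 is a fatty acid-binding protein that adipocytes and macrophages make and that is also released from cells. Palmitic acid is a saturated fatty acid. The design asks what each agent does with and without the other. The labels number 3 replicates per group and do not say that they came from separate cultures, so errors and p-values measure the spread between these arrays, which may be technical.

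TGF-beta is made as a latent complex, in which the mature cytokine stays bound to its own propeptide. Lrrc32, also called GARP, is a membrane protein that holds this latent complex on the cell surface, best known from regulatory T cells and platelets, while latent TGF-beta binding proteins such as Ltbp3 tie it to the extracellular matrix. Once released, the cytokine binds the kinase receptors Tgfbr2 and Tgfbr1, which phosphorylate Smad2 and Smad3, and these enter the nucleus with Smad4. Smad7 is a feedback inhibitor that acts at the receptor, and Tgfbi is a secreted matrix protein named for its induction by TGF-beta.

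On these arrays Lrrc32 was the 1 gene of the 8 whose groups with and without palmitic acid separated both in the absence and in the presence of FABP4. It was 2.88-fold higher in palmitic acid than in the controls, and 3.20-fold higher in palmitic acid with FABP4 than in FABP4 alone. On the brightest probe of each gene and without a slide term, Tgfb1, Ltbp3, Tgfbr1, Tgfbr2 and Smad7 differed by at most 0.26 on the log2 scale in any comparison of 2 groups. A second Ltbp3 probe near background and Smad7 with a slide term gave larger values, described with those genes. Smad3 and Tgfbi were not well above background on any of the 12 arrays. With FABP4 against without it, the groups overlapped for all 6 detected members, whether or not palmitic acid was there. The share of all tested genes whose groups overlap is not given here, so nothing is read from how many members overlapped or separated.

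A value on these arrays reports only what binds a 60-base probe. The start of the probe behind each main value is therefore shown, except for Smad7, whose probe sequence is not reported here. The paired probes of Ltbp3 and Tgfbr1, whose readings differed, are shown as well. Each line gives the first 30 of 60 bases, 5′ to 3′, as the array design lists them.

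Lrrc32: ccctgggacccgctctttgtataactcaca

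Tgfb1: actgcccatcgtctactacgtgggtcgcaa

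Ltbp3, detected in every group: gccgccgctgatgatgcagccatagcccac

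Ltbp3, near background: ctcccaagggtgattcctagaaacttcgac

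Tgfbr1, detected in every group: tttcatcctaacactacagtagaaaatgga

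Tgfbr1, not above background: ctttttatctcatatgtgcagatcttgcaa

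Tgfbr2: tctagcggggaatttacagaatgctggtcc

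In the design's mm9 coordinates the Lrrc32 probe lies on the plus strand at chr7:105650282-105650341, and the Tgfb1 probe on the plus strand at chr7:26489877-26489936. The detected Ltbp3 probe lies at chr19:5758082-5758141, and its partner starts 207 bases further along. The detected Tgfbr1 probe lies at chr4:47427736-47427795, 2790 bases from the dim probe of the same transcript accession. The brighter Tgfbr2 probe lies on the minus strand at chr9:115997155-115997214. The exon or UTR that each probe falls in was not analysed.

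The share of spots well above background was 42.8% to 46.7%, and no gene spot was saturated. The arrays lay on 2 slides, each scanned once. The 3 controls and FABP4 array 1 shared slide 1. The other FABP4 arrays, 2 and 3, were on slide 2 together with the 6 that received palmitic acid. The median raw signal of an array was 15.5 to 16.3 on the first slide but 16.9 to 21.7 on the second, so the comparison of palmitic acid with the controls also compares slides. The slide effect can be estimated only through the FABP4 group, which spans both. By the row number in the array barcodes, FABP4 arrays 2 and 3 lay in row 1 of slide 2. All arrays with both agents lay in row 2 of that slide. Palmitic acid arrays 1 and 2 lay in its row 1 and array 3 in its row 2. All arrays of slide 1 lay in row 2. Comparing FABP4 with both agents on slide 2 alone therefore also compares rows. The slide term, estimated through the FABP4 arrays, also holds a change of row, and the other comparisons of groups mix rows in part. The part of the row was not tested. Below, a scaled signal is the background-subtracted intensity brought to a common 75th percentile, and values from different probes are not compared with each other. All 11 macrophage markers read were well above background on all 12 arrays. Of 8 regulatory T cell markers only Cd3e and Cd4 were above background on all arrays, while Cd3g, Il2ra, Ctla4 and Ikzf2 were not above it on any. The regulatory T cell markers summed to 2720 to 3560 in the groups without palmitic acid and to 2980 to 3880 in those with it. Of 7 platelet markers only Pf4 was above background on all arrays, with Itga2b, Gp1ba, Ppbp and Itgb3 above it on none, and the list summed to 291 to 683 without and 326 to 414 with palmitic acid. Endothelial markers summed to 6300 to 9350 without and 8090 to 10100 with palmitic acid, with 3 of 7 above background on all arrays and Tek, Emcn and Tie1 on none. Fibroblast markers summed to 76.1 to 96.6 without and 101 to 481 with palmitic acid, with Col1a2 alone of 7 above background on all arrays. The part of these markers in the results below was not tested. In a bulk sample, fewer cells with a transcript and less of it per cell cannot be told apart.

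Lrrc32, the surface anchor of latent TGF-beta, had scaled signals of 61.8, 81.1 and 79.4 on the 3 control arrays. The FABP4 arrays read 60.9, 71.9 and 75.3. With palmitic acid the signals were 197, 201 and 239, and with both agents 218, 219 and 226. All 6 arrays with palmitic acid lay above all 6 without it. FABP4 and control overlapped, as did the 2 groups with palmitic acid.

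The group means of Lrrc32 were 74.1 ± 10.7 in controls, 69.4 ± 7.52 in FABP4, 212 ± 23.1 in palmitic acid and 221 ± 4.09 in both agents (SD, n = 3 each). In order of level FABP4 came lowest, then control, palmitic acid and both agents, but FABP4 and control did not differ beyond their spread, and neither did the 2 groups with palmitic acid. The log2 difference was 1.52 ± 0.12 (SE) for palmitic acid alone, with a 95% confidence interval from 1.26 to 1.79. It was 1.68 ± 0.12 for palmitic acid in the presence of FABP4, with an interval from 1.41 to 1.94. These were the 23rd and the 7th largest increases among 17596 genes, a rank that describes why the gene was chosen. The 2 effects differed by 0.15 ± 0.17. FABP4 itself gave -0.09 ± 0.12 without and 0.06 ± 0.12 with palmitic acid.

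**Figure D1:**
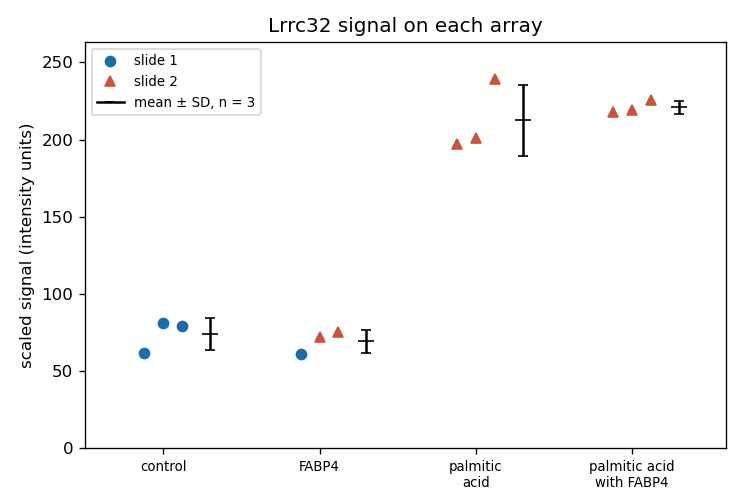
Scaled Lrrc32 signal (vertical axis, linear intensity units from 0) on each of 12 arrays by treatment group, with circles for slide 1, triangles for slide 2, and bars for the mean ± SD of 3 arrays. The 6 arrays with palmitic acid lie between 197 and 239, and the 6 without it between 60.9 and 81.1, including the 2 FABP4 arrays that shared slide 2 with the palmitic acid arrays.

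No group other than FABP4 was on both slides. FABP4 arrays 2 and 3, on slide 2, differed from the slide 1 controls by 7e-04 on the log2 scale, a value that mixes slide and treatment, while FABP4 array 1, on slide 1, lay 0.27 below the controls (-0.27). Against those 2 FABP4 arrays of its own slide, palmitic acid was higher by 1.52 in log2, which is 2.88-fold. On slide 2 alone, where these 2 groups also lay in different rows, palmitic acid with FABP4 exceeded FABP4 by 1.59 ± 0.09. With slide as a fixed term, estimated through the FABP4 group alone, the difference was 1.25 ± 0.20 without FABP4 and 1.59 ± 0.12 with it. Another background correction, normexp with an offset of 50, gave 0.93 and 1.13. The offset adds a constant to every signal, and its part in these smaller values was not tested. Leaving out any 1 array kept the difference between 1.40 and 1.60 without FABP4 and between 1.59 and 1.74 with it.

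Tgfb1 encodes the TGF-beta1 precursor, the ligand that Lrrc32 holds. Its probe was printed in 10 spots per array, whose SD within an array was 0.017 to 0.047 in log2, against 0.12 between arrays of a group. The scaled signals were 3936, 4399 and 4183 in controls and 3632, 4072 and 4164 in FABP4. They were 3855, 4728 and 4136 in palmitic acid and 4349, 4410 and 3740 in both agents. The 4 groups overlapped throughout.

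In log2 the Tgfb1 difference was 0.02 ± 0.09 for palmitic acid without FABP4, with a 95% confidence interval from -0.19 to 0.23, and 0.07 ± 0.09 with FABP4. Such an interval does not cover a change of the size seen for Lrrc32. The FABP4 differences were -0.08 ± 0.09 and -0.02 ± 0.09. The sign for palmitic acid without FABP4 changed with slide as a fixed term (-0.16), so no direction is given.

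Ltbp3 encodes a latent TGF-beta binding protein of the extracellular matrix. Its detected probe read 186, 216 and 208 in controls, 168, 198 and 229.7 in FABP4, 215, 206 and 221 in palmitic acid, and 250.5, 211 and 205 in both agents. The groups overlapped in all 4 comparisons. The log2 difference was 0.08 ± 0.12 for palmitic acid without FABP4 and 0.17 ± 0.12 with it, and the former became -0.27 with slide as a fixed term. The second Ltbp3 probe was well above background on 0 control arrays, 2 FABP4 arrays, 1 palmitic acid array and 1 array with both agents. Its log2 difference for palmitic acid without FABP4 was 0.60 ± 0.25, and those groups did not overlap. Its readings were 18.1 to 22.8 on the 4 arrays of slide 1 and 25.2 to 39.0 on the 8 arrays of slide 2. All controls were on slide 1 and all palmitic acid arrays on slide 2, so slide and treatment cannot be told apart in that comparison. Against FABP4 arrays 2 and 3, also on slide 2, palmitic acid differed by -0.12 in log2 on this probe, with signals near background.

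Tgfbr1 encodes the type I receptor, the kinase that phosphorylates Smad2 and Smad3. The 1 detected probe of 4 read 214, 163 and 197 in controls and 211, 186 and 175 in FABP4. It read 191, 167 and 184 in palmitic acid and 179.5, 152 and 176 in both agents. Both groups with palmitic acid lay within or slightly below the range of the controls and overlapped with it.

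The log2 difference of Tgfbr1 was -0.08 ± 0.11 for palmitic acid without FABP4 and -0.17 ± 0.11 with FABP4. It was 0.00 within rounding for FABP4 alone and -0.10 ± 0.11 for FABP4 on top of palmitic acid. The other 3 probes were not well above background on any array, and 2 of them carry accessions of other transcripts of the gene.

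Tgfbr2 encodes the type II receptor, which binds the ligand first. Its brighter probe read 2525, 2538 and 2497 in controls and 2746, 2432 and 2345 in FABP4. It read 2650, 2558 and 2678 in palmitic acid and 2333, 2559 and 2408 in both agents. The 3 palmitic acid arrays lay above the 3 controls, but the gap between the groups was smaller than the spread within FABP4. The log2 difference was 0.06 ± 0.06, and 0.26 ± 0.08 with slide as a fixed term.

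With FABP4 present the palmitic acid difference of the brighter Tgfbr2 probe was -0.04 ± 0.06. FABP4 gave -0.01 ± 0.06 without and -0.11 ± 0.06 with palmitic acid. The second Tgfbr2 probe, which starts 2341 bases away and read 262 to 326 over all arrays, did not separate the groups. It gave 0.00, 0.13, -0.10 and 0.03 in the same 4 comparisons, with signs that partly differ from those of the first probe.

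Smad7, the inhibitory SMAD that TGF-beta signalling itself induces, read 81.4, 79.8 and 76.6 in controls. FABP4 arrays read 100.5, 71.7 and 66.4, palmitic acid arrays 89.5, 80.8 and 95.4, and arrays with both agents 58.7, 76.6 and 89.8. The groups overlapped in every comparison, and the 2 FABP4 groups spread the most. The log2 difference was 0.16 ± 0.17 for palmitic acid without FABP4 and -0.08 ± 0.17 with it. FABP4 on top of palmitic acid gave -0.26 ± 0.17, the widest of the differences outside Lrrc32.

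The Smad7 value depended on the slide term more than that of any other member. FABP4 array 1, on slide 1, read 0.34 above the controls in log2, and FABP4 arrays 2 and 3 read below them by 0.20 (-0.20). With slide as a fixed term the palmitic acid difference without FABP4 became 0.70 ± 0.24, and with slide as a random term 0.38. Since that term rests on 1 FABP4 array against 2, slide and treatment cannot be told apart for a gene with this spread.

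Smad3, the signal-carrying partner of the receptors, was read by 2 probes that start 2918 bases apart. Their scaled signals lay between 4.08 and 6.12 over all 12 arrays, and no array was well above background. Tgfbi read 4.53 to 6.12 in controls, 4.29 to 7.67 in FABP4, 5.28 to 18.7 in palmitic acid and 5.34 to 5.65 in both agents. The highest Tgfbi reading came from 1 palmitic acid array and was also not well above background, while the other 2 read 5.28 and 6.12. These 2 genes have only a bound, and no fold is given for them. At this signal a difference between groups was not detectable.

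**Figure D2:**
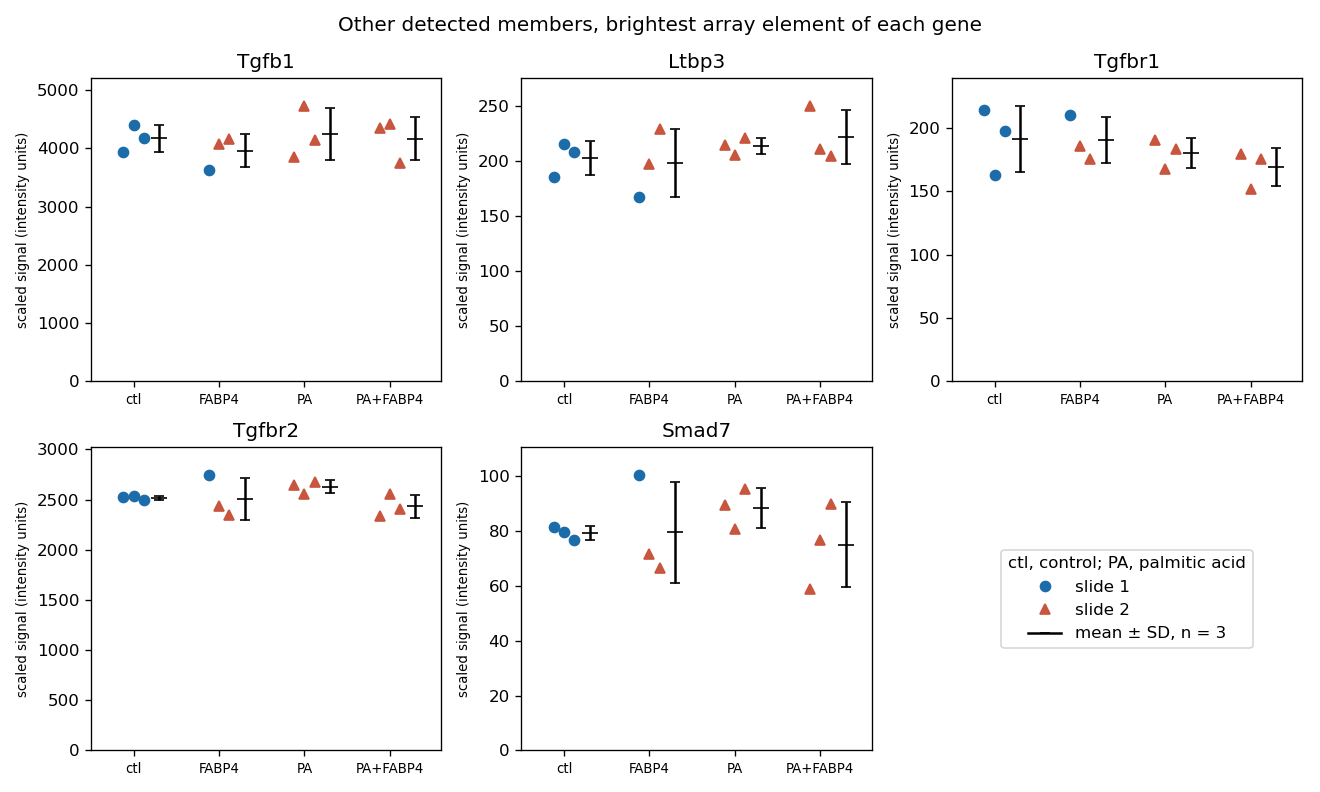
Scaled signal (linear intensity units from 0) of Tgfb1, Ltbp3, Tgfbr1, Tgfbr2 and Smad7 on each of 12 arrays by group, with circles for slide 1, triangles for slide 2 and bars for the mean ± SD of 3 arrays. The groups overlap in each panel except palmitic acid against control for Tgfbr2, where the means are 2630 and 2520.

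A gene was called when its adjusted p was under 0.05 in a linear model fitted with limma to all 17596 genes that were well above background on all 3 arrays of some group. Of the 8 members, 6 entered that fit. In palmitic acid without FABP4, 1 of 6 was called, Lrrc32, where 8.61% of all genes were called. In palmitic acid with FABP4, again 1 of 6 was called, Lrrc32, against 3.81% of all genes. FABP4 without palmitic acid called 0 members against 0.017% of all genes. FABP4 with palmitic acid, and the difference between the palmitic acid effects, each called 0 members and 0% of all genes. Before adjustment, p from limma was under 0.05 for 7.23%, 5.88% and 6.92% of the genes tested in these last 3 comparisons. Since the genes were chosen on these signals, nothing is read from the member counts.

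Over the 6 members the median log2 difference was 0.07 for palmitic acid without FABP4 and 0.02 with it, where the medians of all tested genes were 5e-04 and 0.05. For FABP4 the member medians were -0.03 without and -0.06 with palmitic acid. Across all genes the calls for palmitic acid with FABP4 split into 504 higher and 166 lower, a split that became 393 to 304 with quantile normalisation, 386 to 434 with the percentile taken over detected probes and 67 to 92 with no scaling. For palmitic acid without FABP4 the split was 858 to 657, and 2945 to 110 with no scaling, which shifted the median of all genes to 0.17. Lrrc32 gave 1.70 in that setting.

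**Figure D3:**
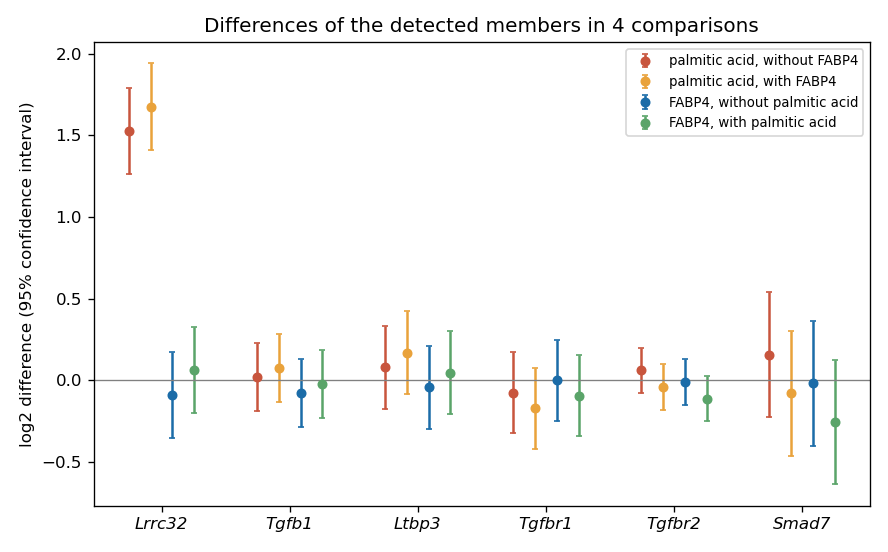
Log2 difference (vertical axis) with its 95% confidence interval for the 6 detected members in 4 comparisons of 2 groups, each of 3 arrays. Lrrc32 stands at 1.52 and 1.68 for palmitic acid, and the other 5 genes lie between -0.26 and 0.17 in all 4 comparisons.

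Beside the members, 96 further genes of the pathway were read in 7 lists, and 60 of them entered the fit. The lists were chosen with earlier results of these data known, so nothing is read from their shares of calls. Palmitic acid without FABP4 raised 4 and lowered 4 of the 60 (13.3%, against 8.61% of all genes; 1 of the 4 raised, Inhba, is a call set by the filter, as described with that gene), and palmitic acid with FABP4 raised 6 and lowered 5 (18.3%, against 3.81%). The median log2 difference of the 60 was 0.06 in both, against 5e-04 and 0.05 for all genes. Of these calls 7 were shared by both comparisons. FABP4 called 0 of 60 without and 0 of 60 with palmitic acid, with 5 at an unadjusted p under 0.05 in limma in each, and 0 of 60 differed between the 2 palmitic acid effects, with 3 at an unadjusted p under 0.05.

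In the model with the scaling above and no slide term, none of the detected genes nearest to the members in the pathway was called in any comparison: 0 of 7 for the latent complex, its activation and other ligands, 0 of 5 receptors and co-receptors, and 0 of 8 SMADs and their partners, where 8.61% and 3.81% of all genes were called for palmitic acid. With slide as a fixed term Itgav, the alpha-v integrin subunit that takes part in activating TGF-beta, was called higher in palmitic acid, by 0.63 without FABP4 (adjusted p = 0.0337) and by 0.38 with it (adjusted p = 0.0187), against 0.29 ± 0.09 (adjusted p = 0.0767) and 0.27 ± 0.09 (adjusted p = 0.148) without that term. Without FABP4, Itgav was also called with quantile normalisation, the percentile over detected probes, normexp, no scaling or only the groups compared. A second Itgav probe gave 0.27 and -0.03. Nrros, which holds latent TGF-beta on myeloid cells as Lrrc32 does on other cells, read 10210, 9912 and 10860 in controls and 9191, 9874 and 9451 in palmitic acid. These groups did not overlap, yet the log2 difference was -0.12 ± 0.05 with a Benjamini-Hochberg adjusted p of 0.194 by limma, and it became 0.00 with slide as a fixed term. With FABP4 the Nrros difference was -0.06 ± 0.05 (adjusted p = 0.55). The list of latent-complex genes also held Thbs1, Itgb6 and Itgb8, which take part in releasing TGF-beta, and none of these entered the fit because they were not above background on all arrays of any group.

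Of 9 detected inhibitors of SMAD signalling, 1 rose in each palmitic acid comparison (11.1%, against 8.61% of all genes without FABP4 and 3.81% with it). Nedd4l, a ubiquitin ligase that marks activated SMADs for degradation, read 97.7, 83.5 and 93.4 in controls and 149, 151 and 175 in palmitic acid. It read 94.0, 86.3 and 87.6 in FABP4 and 160.1, 147 and 154 in both agents. All 6 arrays with palmitic acid lay above all 6 without it. Its log2 difference was 0.79 ± 0.08 without and 0.78 ± 0.08 with FABP4 (adjusted p = 0.000735 in each), and its call held in every alternative tried. Tgif1, a SMAD co-repressor, was called with FABP4 when slide was a fixed term (0.25, adjusted p = 0.0281), against 0.20 ± 0.05 (adjusted p = 0.0753) without it, and also with slide as a random term.

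Of 13 detected TGF-beta target genes, 1 rose and 2 fell in palmitic acid without FABP4 (23.1%, against 8.61% of all genes). With FABP4, 3 rose and 3 fell (46.2%, against 3.81%). Id1, an inhibitor of helix-loop-helix factors that SMADs induce, read 924, 843 and 987 in controls, 973.5, 854 and 909 in FABP4, 554.5, 579 and 624 in palmitic acid and 582, 629 and 625 in both agents. It fell by 0.65 ± 0.08 in log2 without FABP4 (-0.65, adjusted p = 0.0014) and by 0.57 ± 0.08 with it (-0.57, adjusted p = 0.00331). Its relative Id3 fell as well, with -0.53 ± 0.06 (adjusted p = 0.00171) and -0.33 ± 0.06 (adjusted p = 0.0209). With slide as a fixed term the calls without FABP4 ended for Id1 (-0.50, adjusted p = 0.112) and for Id3 (-0.39, adjusted p = 0.126). On slide 2 alone the call with FABP4 held for Id1 (adjusted p = 0.0216) and ended for Id3 (adjusted p = 0.106), which was also lost in 2 of 12 fits with 1 array left out (at most 0.0779, without palmitic acid with FABP4 array 2).

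Bhlhe40, a transcriptional repressor of the circadian and hypoxia responses, rose by 0.60 ± 0.05 (adjusted p = 0.00022) and 0.63 ± 0.05 (adjusted p = 0.000225), and kept its call in every alternative. Klf10, a zinc-finger factor also called TGF-beta-inducible early gene, rose with FABP4 by 0.46 ± 0.08 (adjusted p = 0.0107) and was not called without it. The Klf10 call with FABP4 held on slide 2 alone (adjusted p = 0.0314) and ended without scaling between arrays or without the filter on dim probes. The difference between these effects was 0.24 ± 0.11 with an adjusted p of 0.713. Acta2, smooth muscle actin, fell with FABP4 by 0.24 ± 0.06 (-0.24, adjusted p = 0.0396), and Runx1, a transcription factor, rose by 0.29 ± 0.07 (adjusted p = 0.0385). A second Runx1 probe gave -0.17 with FABP4 and -0.35 without it (unadjusted p = 0.0113 in limma), the opposite sign, and on slide 2 alone the calls ended for Runx1 (adjusted p = 0.118) and Acta2 (adjusted p = 0.16). Leaving out 1 array in turn ended the Runx1 call in 8 and the Acta2 call in 10 of 12 fits, at most to an adjusted p of 0.14 without palmitic acid with FABP4 array 2 and of 0.112 without palmitic acid with FABP4 array 1.

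Of 4 detected macrophage and microglia genes that depend on TGF-beta, 25% were called without and 50% with FABP4 (all genes, 8.61% and 3.81%). Cx3cr1, the fractalkine receptor, fell in both comparisons of palmitic acid. It read 2236, 2160 and 2232 in controls and 1328, 1389 and 1569 in palmitic acid, a difference of -0.63 ± 0.07 (adjusted p = 0.0014), and -0.37 ± 0.07 with FABP4 (adjusted p = 0.0245). A second Cx3cr1 probe gave -0.69 and -0.56. Gas6, of the same list, was called lower in palmitic acid without FABP4 when slide was a fixed term, and was not called without that term. Olfml3, a secreted olfactomedin-domain protein, rose with FABP4 by 0.79 ± 0.14 (adjusted p = 0.0166). On slide 2 alone the calls with FABP4 ended for Olfml3 (adjusted p = 0.0723) and Cx3cr1 (adjusted p = 0.058). Of 12 fits with 1 array left out, 3 ended the Olfml3 call and 5 the Cx3cr1 call with FABP4, both most so without palmitic acid with FABP4 array 1 (adjusted p = 0.0685 and 0.0943).

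Among 14 detected ligands and receptors of the wider superfamily, 21.4% were called in palmitic acid without FABP4 and 14.3% with it. Of all genes, 8.61% and 3.81% were called. The share without FABP4 includes Inhba, described below. Gdf15, a stress-induced secreted factor, rose by 0.77 ± 0.13 (adjusted p = 0.00702) and 0.88 ± 0.13 (adjusted p = 0.00534). Fst, which encodes the activin antagonist follistatin, fell, with -0.52 ± 0.09 (adjusted p = 0.00921) and -0.42 ± 0.09 (adjusted p = 0.0344). Inhba, the activin A subunit, was above background on no array without palmitic acid, and read 27.3, 32.3 and 42.4 in palmitic acid, at least 1.39-fold higher than in controls, a bound set by the weakest signals above background. It entered the fit only through the palmitic acid group, where it was high, so its call, 1 of the 8 without FABP4, is not read as a test. With slide as a fixed term the calls without FABP4 ended for Gdf15 (1.06, adjusted p = 0.061), Fst (-0.56, adjusted p = 0.165) and Inhba, and held for Nedd4l (adjusted p = 0.026), Bhlhe40 (adjusted p = 0.0238) and Cx3cr1 (adjusted p = 0.022). On slide 2 alone the Gdf15 call with FABP4 held (adjusted p = 0.0109) and the Fst call ended (adjusted p = 0.129). The Fst call with FABP4 also ended in 9 of 12 fits with 1 array left out, up to an adjusted p of 0.113 without palmitic acid with FABP4 array 1.

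**Figure D4:**
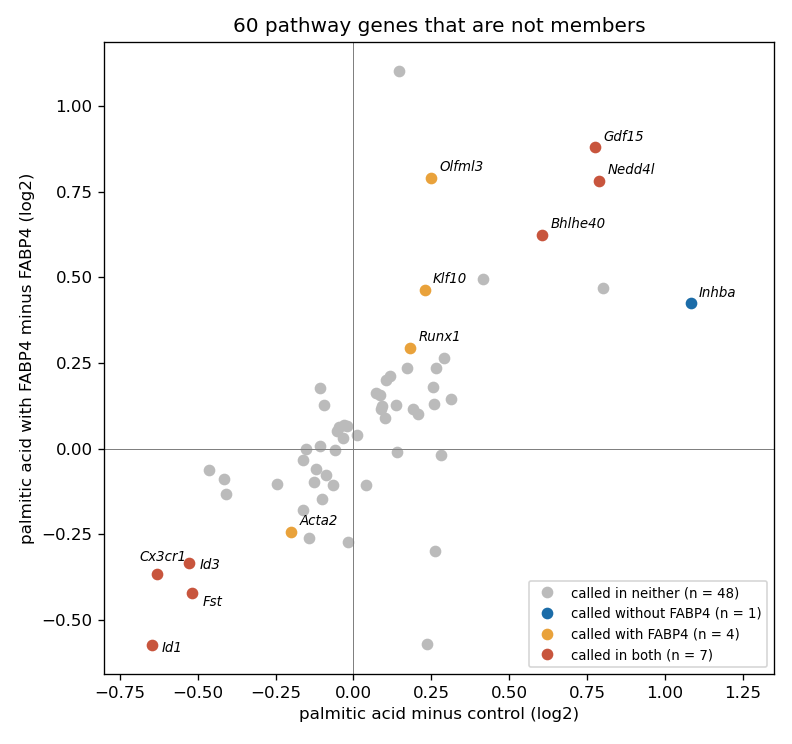
Log2 difference of 60 pathway genes outside the members for palmitic acid minus control (horizontal axis) and palmitic acid with FABP4 minus FABP4 (vertical axis), each point 1 gene, coloured by whether limma called it. The 7 genes called in both have the same sign on both axes, with Nedd4l, Bhlhe40 and Gdf15 higher and Id1, Id3, Cx3cr1 and Fst lower.

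In the comparisons of FABP4, where no pathway gene was called, the 3 genes with the smallest p on the probe that represents each gene are given. Without palmitic acid they were Id3 with -0.19 ± 0.06 (adjusted p = 0.587 by limma), Klf10 with -0.20 ± 0.08 (adjusted p = 0.65) and Foxh1 with 0.82 ± 0.34 (adjusted p = 0.662). With palmitic acid they were Tgfb3 with 0.26 ± 0.09, Nrros with 0.14 ± 0.05 and Cx3cr1 with 0.18 ± 0.07, each at an adjusted p of 0.806. For the difference between the palmitic acid effects they were Crebbp with 0.28 ± 0.10 (adjusted p = 0.693), Olfml3 with 0.54 ± 0.20 and Cx3cr1 with 0.27 ± 0.10, both at 0.708. A second probe of Acvr1b, a receptor of the superfamily, gave 0.06 for FABP4 without palmitic acid. With palmitic acid that probe gave 0.48 (unadjusted p = 0.00208 in limma).

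The 6 genes whose log2 signal followed Lrrc32 most closely over the 12 arrays were Bhlhe40, Procr, 1700017B05Rik, Hilpda, Cpt1a and Plin2, with Pearson r of 0.986 to 0.989. Plin2 and Hilpda encode proteins of lipid droplets, Cpt1a the enzyme that brings fatty acids into mitochondria, and Procr the endothelial protein C receptor. The split of the 12 arrays by palmitic acid can by itself give a high r, and how much it gave was not tested. Over the 8 arrays of slide 2 the values were 0.986 to 0.997. These arrays keep that split and were among those used to pick the 6 genes, so they are no separate check. Palmitic acid without FABP4 gave log2 differences of 1.44 for Hilpda, 1.37 for Cpt1a, 1.42 for Plin2, 0.67 for Procr and 0.39 for 1700017B05Rik, beside 1.52 for Lrrc32. Among the members, r with Lrrc32 was 0.28 for Tgfb1, 0.53 for Ltbp3, -0.53 for Tgfbr1, 0.01 for Tgfbr2 and 0.04 for Smad7.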

How the data were processed

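The 8 genes, the pathway lists and the marker lists were chosen with earlier results of these data known. A marker gene is not reported here. Cy3-labelled RNA of each sample was hybridised to 1 array, per the labels' protocols. Per the file headers, scans were read by version 10.7.3.1 of Agilent Feature Extraction, which gives a background-subtracted intensity on a linear scale, not normalised between arrays. A table of values that the authors deposited equals this intensity within 0.005 on each array, so it is linear and not centred, and its column medians were 12.97 to 18.4. Further steps of the authors are not given in the sources used here.

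Control spots were left out, spots of a probe were averaged, and values were log2 intensity minus each array's 75th percentile over all 59305 gene spots. A scaled signal is that ratio times 273.4, the geometric mean of the percentiles (250.1 to 315.3). Probes were kept where some group had all 3 arrays well above background (23911), and each gene was represented by its brightest kept probe. Group means were fitted to all 12 arrays with limma 3.58.1 in R 4.3.3, two-sided, with Benjamini-Hochberg adjustment over 17596 genes, and tested on simulated data. The median standard error of a comparison was 0.084 in log2, and the number of arrays limits this precision. A gene dim on all arrays of a group was bounded at the weakest signal above background. Gene names are those of the array design, which lists Nrros as Lrrc33. Accessions of 12 of the 14 member probes matched the reference table.

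Named genes were all 8 members with every probe, the called pathway genes (where none, the 3 with the smallest p), Nrros, and the 6 genes closest to Lrrc32 by Pearson r. Alternatives changed the scaling, background correction, filter, choice of probe, slide term, replicate block and arrays included. Figures were drawn with matplotlib in Python.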

Additional observations from a re-analysis of the deposited data

How the results depend on the processing

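Of 544 differences recomputed for the 6 detected members, 509 moved by less than 1 SD between arrays and 35 by more. Some settings change only the error and cannot move a difference, such as leaving out an array of a group not compared. The 509 therefore do not measure how stable the differences are. Lrrc32 stayed higher with palmitic acid in every setting. For the 60 pathway genes, palmitic acid without FABP4 called 8, and 5 with slide as a fixed term, 23 with no scaling between arrays (19 higher, 4 lower; chosen after seeing the data) and 7 to 15 with 1 array left out, the 15 without FABP4 array 1. All genes gave 1515, and 138, 3055 and 655 to 2716 in these settings, 191 with slide as a random term and 513 without the filter on dim probes. Palmitic acid with FABP4 called 11, and 4 without that filter, 5 on slide 2 only, 5 with only the groups compared, 7 with no scaling (3 higher, 4 lower) and 6 to 11 with 1 array left out. All genes gave 670, and 185, 260, 94, 159 and 247 to 601. FABP4 without palmitic acid called 0, and 1 (Gas6, lower) with slide as a fixed term, where all genes gave 103 against 3, and 59 without FABP4 array 1. Its other alternatives, and all for FABP4 with palmitic acid and for the difference between palmitic acid effects, called 0 pathway genes. Causes of these moves were not tested. Same-numbered arrays did not deviate together (correlations of -0.077 to 0.074), so the numbers are not taken as pairs. With the replicate block, palmitic acid with FABP4 called 7 pathway genes and 408 of all genes, and palmitic acid without FABP4 called 9 and 1339. Signals near background limit Smad3, Tgfbi, the second Ltbp3 probe and 3 Tgfbr1 probes.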
